A study of Mus musculus with 12 samples.

Results

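The death receptor genes described here are 7 members of the extrinsic apoptosis pathway, chosen by name but with earlier results of these data known. They are the receptors Fas, Tnfrsf10b and Tnfrsf1a, the adaptors Fadd and Tradd, the initiator caspase gene Casp8 and its inhibitor Cflar. All 7 were present among the 27179 genes of the count table, and all 7 passed the filter on low counts, which kept 13592 genes. RNA of mature B cells residing in mouse bone marrow was sequenced in 12 libraries, 3 per group. The cells had been sorted as B220high IgM+ CD93-, and all mice had the C57BL/6 strain background. The old group held WT mice of 98, 99 and 100 weeks, and the young group held WT mice of 9, 10 and 11 weeks. The Apoptosis-resistant group had the genotype Bak-/- BaxD/D and the Apoptosis-sensitive group the genotype Bak-/- Baxfl/fl, both at 10 weeks. The genetically altered groups thus share the loss of Bak and differ in whether the floxed Bax alleles had been recombined. The sources used here do not name the driver of that recombination or the cells in which it acted. Each old library had the same collection date as 1 young library, and each resistant library the same date as 1 sensitive library.

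Death receptors are cell surface proteins of the tumour necrosis factor receptor superfamily that carry a death domain on their inner side. When ligand binds, Fas and the TRAIL receptor recruit the adaptor FADD, which brings in pro-caspase-8, while the first TNF receptor recruits TRADD and signals mainly to NF-kB. Cellular FLIP, the product of Cflar, competes with caspase-8 in these complexes, and in B cells this route is best known for removing activated and self-reactive cells in the periphery, outside the mitochondrial step that needs BAX or BAK.

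Total counts ran from 13474162 to 23539764 per library. The unit of level is CPM, the counts of a gene relative to the TMM-scaled library total. The targeted gene Bax had 4.97, 6.42 and 8.36 CPM in resistant libraries, against 55.7, 56.3 and 100.1 CPM in sensitive libraries. Bak1 had 10.8, 14.4 and 6.98 CPM in resistant libraries and 9.64, 12.5 and 6.17 CPM in sensitive libraries, against 24.7 to 47.9 CPM in the 6 WT libraries. The genes of 7 B cell identity proteins, among them Cd79a, Ms4a1 and Pax5, summed to between 10201 and 18540 CPM in every library. The libraries of 24 March, old replicate 1 and young replicate 1, stood apart from the other 10 on the first principal component, with scores of 93.5 and 58.5 against -35.2 to 30.7. They hold the 2 lowest Fadd levels of the series. For some member results, among them Fas and Tnfrsf10b with age, fits without these libraries are given as well. Results for genes of the pathway and marker lists are given only with them.

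Per length, Casp8, Tradd and Cflar had higher levels than the 3 receptors and Fadd. Divided by the length of the merged exons, the mean level over all 12 libraries was 40.4 CPM per kb for Casp8, 21.5 for Tradd, 10.9 for Cflar, 4.99 for Fas, 4.46 for Fadd, 0.686 for Tnfrsf1a and 0.332 for Tnfrsf10b. These 3 were also the steadiest: the highest library had 1.52 times the CPM of the lowest for Casp8, 1.61 times for Cflar and 1.81 times for Tradd. The same ratio was 3.00 for Fadd, 4.76 for Tnfrsf10b, 7.04 for Fas and 19.0 for Tnfrsf1a.

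**Figure D1:**
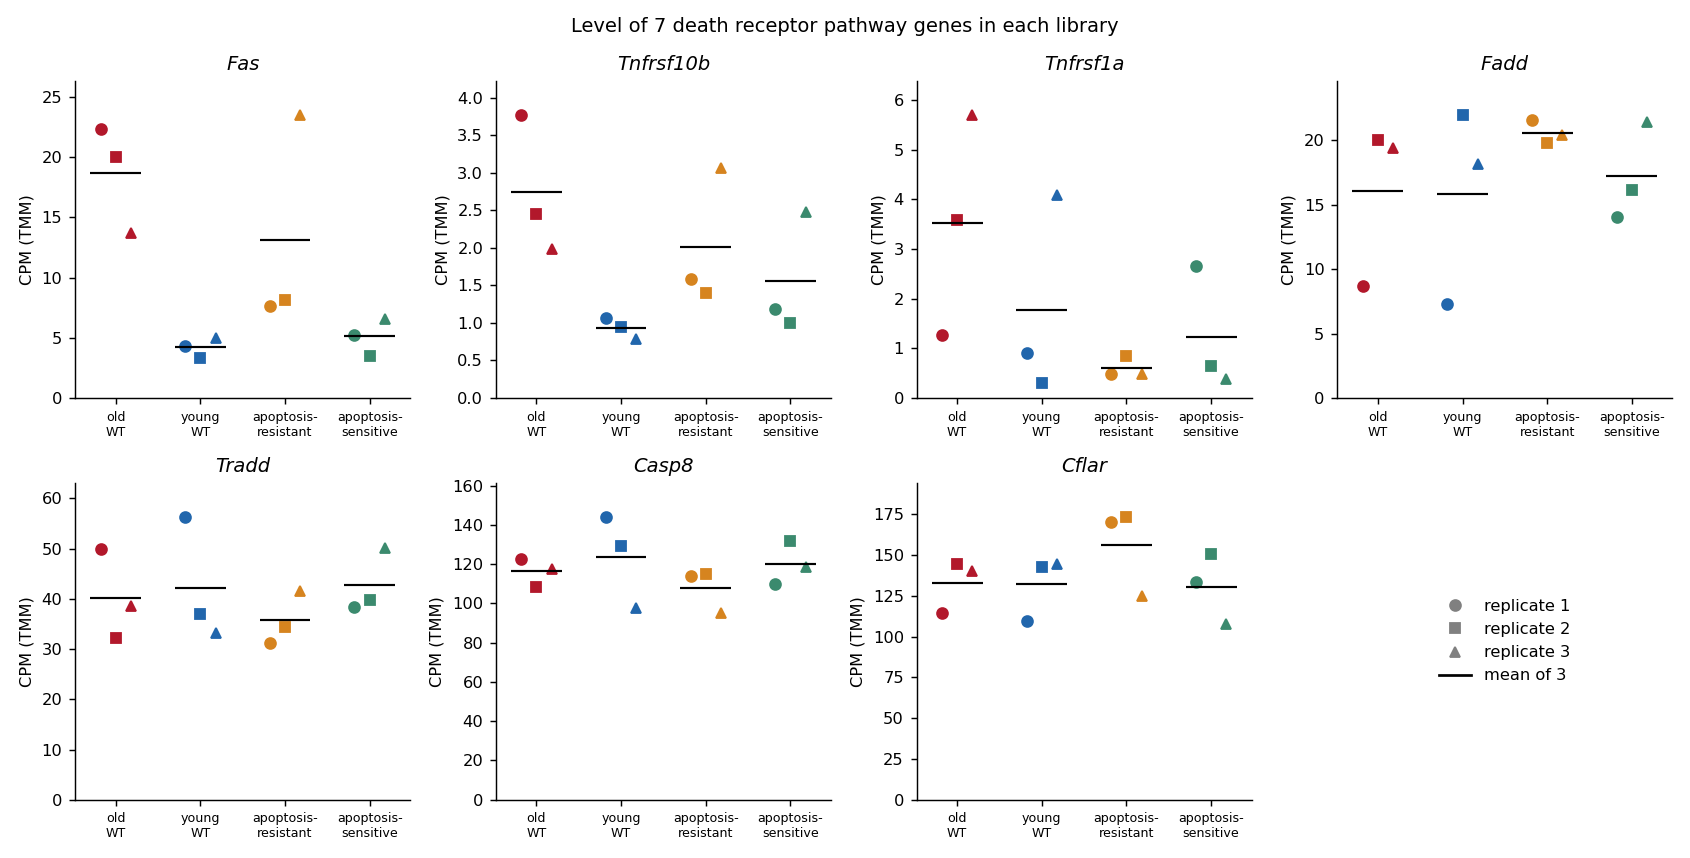
CPM (y axis, linear from 0) of each of the 7 genes in every library, by group on the x axis: points are libraries, marker shapes are replicate numbers and bars are means of 3. Fas in old libraries lies at 13.7 to 22.4 CPM, above all young libraries at 3.34 to 4.95 CPM, while Casp8 and Cflar overlap between all groups.

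Fas was the member called with age. It encodes the receptor for Fas ligand, CD95, and lies on chromosome 19 (Entrez gene 14102, GRCm38.p6 chr19:34290647-34327775, plus strand). Its level was 22.4, 20.0 and 13.7 CPM in old libraries, from 457, 391 and 255 reads, against 4.35, 3.34 and 4.95 CPM in young libraries, from 53, 78 and 75 reads. Every old library was above every young one, and the lowest old library still had 2.77 times the level of the young library of its own date. Fas rose with age by 2.15 ± 0.44 on the log2 scale (SE), a 4.45-fold higher level, with an adjusted p of 0.0318 by edgeR's quasi-likelihood test. The means were 18.7 ± 4.48 CPM in old and 4.21 ± 0.812 CPM in young libraries (SD, n = 3 each). In bulk RNA, a change in the share of cells that express a gene and a change in RNA per cell cannot be told apart. This holds for Fas as for each gene below.

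The call stood near the threshold. It was lost when old replicate 1 (adjusted p = 0.0643), old replicate 2 (0.0923), young replicate 1 (0.0717), young replicate 2 (0.145) or young replicate 3 (0.0711) was left out, and it held without old replicate 3 (0.0463), all by edgeR. Without both libraries of 24 March the change was 2.04 on the log2 scale with an adjusted p of 0.114 by edgeR. With the collection date as a block, the change was 2.14 ± 0.28 with an adjusted p of 0.00096 by edgeR.

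The promoter of Fas is shown because Fas was the called member, and that of Fadd beside it because Fadd shares its motif and did not pass the test in any comparison. Both are from RefSeq on GRCm38.p6 and run from 250 bases before to 50 bases after the start that RefSeq gives, Fas at chr19:34290409-34290708 on the plus strand and Fadd at chr7:144582392-144582691 on the minus strand. They are written 5′ to 3′ along the gene, with each GGGCGG, the core of the GC box that Sp1-family factors bind, in capitals on whichever strand it lies.
Fas: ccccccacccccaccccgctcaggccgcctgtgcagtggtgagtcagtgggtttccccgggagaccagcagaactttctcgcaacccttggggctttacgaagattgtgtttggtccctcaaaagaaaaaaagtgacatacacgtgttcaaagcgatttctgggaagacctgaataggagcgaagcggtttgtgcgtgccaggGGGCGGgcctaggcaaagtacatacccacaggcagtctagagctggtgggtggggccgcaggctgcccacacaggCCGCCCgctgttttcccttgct
Fadd: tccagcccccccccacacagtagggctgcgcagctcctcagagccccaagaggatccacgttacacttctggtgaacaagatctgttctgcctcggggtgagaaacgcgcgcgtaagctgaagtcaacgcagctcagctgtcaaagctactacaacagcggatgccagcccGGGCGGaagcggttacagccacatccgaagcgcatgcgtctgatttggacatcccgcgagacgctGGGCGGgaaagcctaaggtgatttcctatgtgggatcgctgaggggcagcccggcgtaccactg
In Fas, GGGCGG began 47 bases before the start and, on the opposite strand, 28 bases after it. In Fadd it began 79 and 14 bases before the start. GGGCGG occurred on either strand in 35.7% of the 32851 promoters of that length, so it is common. Among the 5 members matched in that table (Fas, Fadd, Casp8, Cflar and Tnfrsf1a), Fas and Fadd held it. CATGTC and CATGCC, which occur within p53 sites, were found on either strand in 10.1% and 11.6% of promoters and in none of the 5. Other sequences of p53 sites and the rest of each gene were not searched, so whether these genes hold p53 sites was not tested. TATAAA was found in 13.6% of promoters and, among the 5, in Cflar. The table matched neither Tnfrsf10b nor Tradd. The Fas window held 14 CpG dinucleotides, the Fadd window 22, the Cflar window 12, the Tnfrsf1a window 11 and the Casp8 window 5, against a median of 7 over all promoters. The Casp8 window, at chr1:58802252-58802551, lies inside the Casp8 locus and not at the start of that locus at 58795233.

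Among the 7 members, Fas was the 1 gene called in old against young cells, beside 2.01% of all genes tested. Tnfrsf10b was the other gene whose groups did not overlap. It encodes the mouse receptor for TRAIL (Entrez gene 21933, chr14:69767472-69784411, plus strand). Its level was 3.77, 2.46 and 1.99 CPM in old libraries, from 77, 48 and 37 reads, against 1.07, 0.942 and 0.791 CPM in young libraries, from 13, 22 and 12 reads. The lowest old library was above the highest young library, and the old library was 3.53, 2.61 and 2.51 times as high as the young library on 24 March, 11 April and 12 April. The log2 change was 1.55 ± 0.48 with an adjusted p of 0.152 by edgeR, so it did not pass. With the collection date as a block it was 1.5 ± 0.34 with an adjusted p of 0.0139 by edgeR, and of 0.0786 when the libraries of 24 March were left out of that fit. DESeq2 gave an adjusted p of 0.0493 and so called 2 of the 7 members, Fas and Tnfrsf10b, beside 5.15% of all genes. The block also called 2 of the 7 members, Fas and Tnfrsf10b, both higher in old libraries, beside 14.9% of all genes tested. Having both groups apart with old higher, as these 2 genes did, was true of 9.16% of all genes tested.

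Tnfrsf1a, the gene of the first TNF receptor (Entrez gene 21937, chr6:125349723-125362483, plus strand), scattered within groups. It had 1.27, 3.58 and 5.70 CPM in old libraries, from 26, 70 and 106 reads, against 0.904, 0.30 and 4.09 CPM in young libraries, from 11, 7 and 62 reads. The groups overlapped, and young replicate 3 stood above old replicates 1 and 2. The 7 reads of young replicate 2 allow 0.121 to 0.618 CPM (95% exact binomial interval, counting error only). The old library was higher on each date, by 1.41, 12.0 and 1.39 times. The log2 change was 1.0 ± 0.91 with an adjusted p of 0.832 by edgeR, and it ran from 0.46 without old replicate 3 to 2.61 without young replicate 3.

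In the libraries with the most Tnfrsf1a, its levels went with those of myeloid genes. The summed level of 10 monocyte and macrophage markers, among them Csf1r, Lyz2 and Adgre1, was 93.7, 172 and 260 CPM in old libraries, against 48.2, 32.6 and 176 CPM in young libraries. It was 56.9, 58.2 and 75.5 CPM in resistant libraries, against 167, 51.2 and 62.2 CPM in sensitive libraries. The 5 libraries with the most Tnfrsf1a were the same 5, in the same order, as those with the highest marker sum: old replicate 3, young replicate 3, old replicate 2, sensitive replicate 1 and old replicate 1. A summed level of 8 granulocyte markers was highest in young replicate 3 at 568 CPM, sensitive replicate 1 at 503 CPM and old replicate 3 at 469 CPM, and ran from 19.4 to 142 CPM in the others. Below the 5 libraries with the most Tnfrsf1a, the orders by Tnfrsf1a and by the monocyte and macrophage sum differed. Young replicate 1 ranked 6 and 11 in them, resistant replicate 3 ranked 10 and 6, and resistant replicate 1 ranked 9 in both. Whether cells other than B cells gave the Tnfrsf1a reads was not tested.

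**Figure D2:**
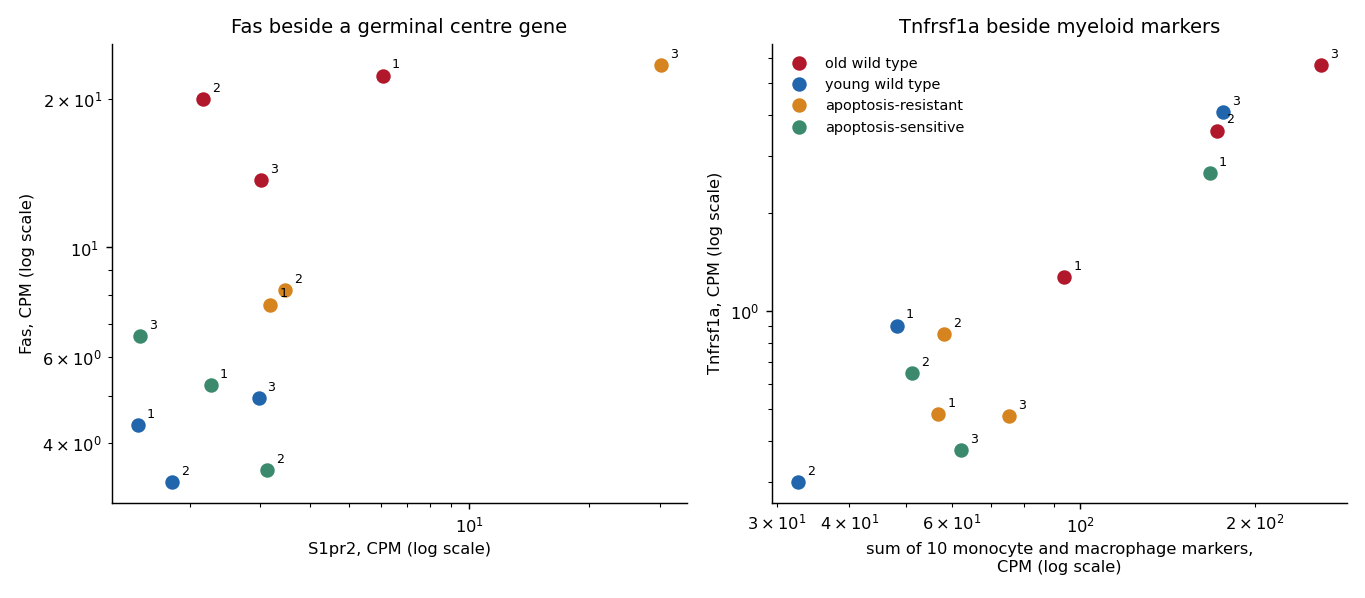
Left, Fas (y axis, CPM, log scale) against the germinal centre gene S1pr2 (x axis, CPM, log scale); right, Tnfrsf1a against the summed CPM of 10 monocyte and macrophage markers, both on log scales, with 1 point per library, coloured by group and numbered by replicate. Resistant replicate 3 is highest in both Fas (23.5 CPM) and S1pr2 (30.3 CPM), and old replicate 3 is highest in both Tnfrsf1a (5.70 CPM) and the marker sum (260 CPM).

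The adaptors did not pass the test with age. Fadd, which links Fas to caspase-8 (Entrez gene 14082, chr7:144578323-144582441, minus strand), had 8.71, 20.0 and 19.4 CPM in old libraries, against 7.31, 22.0 and 18.2 CPM in young libraries. The low value of each group was its library of 24 March, and the other 10 libraries of the series lay between 14.0 and 22.0 CPM. The log2 change was 0.01 ± 0.39 with an adjusted p of 0.998 by edgeR. Exons of the antisense gene Faddos overlap those of Fadd and strand was not given, so its reads are uncertain. Tradd, which links the first TNF receptor to RIPK1 and TRAF2 (Entrez gene 71609, chr8:105258575-105264594, minus strand), had 49.97, 32.2 and 38.5 CPM in old libraries, against 56.4, 37.0 and 33.1 CPM in young libraries. Here the 24 March libraries were the high ones of each group. Its log2 change was -0.07 ± 0.24, with an adjusted p of 0.982 by edgeR.

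Casp8 and Cflar are neighbours on the same strand of chromosome 1, 36348 bases apart. Casp8, the initiator caspase (Entrez gene 12370, chr1:58795233-58847503), had 122, 109 and 118 CPM in old libraries, against 144, 129 and 97.7 CPM in young libraries. The old libraries lay inside the range of the young ones. Its log2 change was -0.09 ± 0.17 with an adjusted p of 0.960 by edgeR. Cflar (Entrez gene 12633, chr1:58711311-58758884) had 115, 144 and 141 CPM in old libraries, against 110, 143 and 144 CPM in young libraries. In both groups the 24 March library was the lowest, and the log2 change was 0.01 ± 0.20 with an adjusted p of 0.998 by edgeR.

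Several marker lists of other cells moved with age in the same libraries. The list of age-associated B cell genes held Itgax, Tbx21, Fcrl5, Itgam, Cd80, Zbtb32, Cxcr3 and Ccr1. Its summed level was 350, 267 and 229 CPM in old libraries, against 61.8, 41.4 and 77.0 CPM in young libraries. Of its 8 genes 6 were called, and 5 with the date block. The summed level of 7 stromal genes was 21.8, 99.8 and 172 CPM in old libraries, against 3.45, 8.09 and 23.8 CPM in young libraries, with 1 of 6 tested genes called, and 6 of 6 with the block. Among 6 NK cell genes the sum was 8.42, 13.1 and 14.1 CPM in old libraries, against 1.97, 3.90 and 4.29 CPM in young libraries, with 1 of 5 tested genes called, and 4 of 5 with the block. The sum of 10 T cell genes was 84.5, 49.0 and 63.8 CPM in old libraries, against 77.2, 39.96 and 45.4 CPM in young libraries, with 2 of 10 called, and 5 of 10 with the block. Most of that sum is Lck, which had 60.1, 26.3 and 35.2 CPM in old libraries, against 70.6, 34.9 and 34.3 CPM in young libraries. Without Lck, left out after the values had been seen, the other 9 genes summed to 24.3, 22.8 and 28.7 CPM in old libraries, against 6.65, 5.05 and 11.1 CPM in young libraries, and over all 10 the median log2 change was 2.39, with 9 genes positive. Of the monocyte and macrophage genes summed above, 1 of 9 tested was called, and 5 of 9 with the block. Itgam belongs to that list and to the age-associated list, so it enters both sums. All these calls are by edgeR and were higher in old libraries, beside 2.01% of all genes called in either direction, and 14.9% with the block. None of 8 granulocyte, 5 erythroid, 7 plasma cell and 7 germinal centre genes was called with age. The same held with the block, except that 1 germinal centre gene was called higher and 2 lower. No gene of these lists was at 0 in every library. Among the 3 old libraries, Fas was highest in old replicate 1, which had the highest age-associated sum and the lowest stromal, NK and myeloid sums. That library, of 24 March, also had the lowest B cell identity sum of all 12 libraries. It was 10201 CPM there, against 17315 and 16442 CPM in old replicates 2 and 3. The T cell sum of old replicate 1 was also the highest of the 3, at 84.5 CPM. Without Lck that sum was 24.3 CPM and lay between those of the other old libraries. The part of these cells in the Fas and Tnfrsf10b levels was not tested.

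With Bax lost in cells that already lacked Bak, edgeR without the date block called none of the 7 members, beside 0.0441% of all genes called. DESeq2 called none of the 7 either, beside 0.942% of all genes. Fas had the 1 unadjusted p under 0.05 among the members (0.0084), which 4.9% of all genes had.

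Fas had 7.66, 8.18 and 23.5 CPM in resistant libraries, from 111, 135 and 492 reads, against 5.24, 3.53 and 6.59 CPM in sensitive libraries, from 93, 60 and 141 reads. Every resistant library was above every sensitive one, which held, with resistant higher, for 6.32% of all genes. The ratios of resistant to sensitive were 1.46, 2.32 and 3.57 on 30 May, 31 May and 7 May. The log2 difference was 1.36 ± 0.43 with an adjusted p of 0.524 by edgeR. With the collection date as a block it was 1.23 ± 0.27 with an adjusted p of 0.0359 by edgeR, so the block called Fas, 1 of the 7 members, beside 3.41% of all genes. Leaving the libraries of 24 March out of that blocked fit gave an adjusted p of 0.0559 by edgeR.

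The size of that difference rested on resistant replicate 3, the library with the most Fas of all 12. Without it the log2 difference was 0.63 with an adjusted p of 1.0 by edgeR. The same library stood apart in genes of germinal centre B cells, a stage at which Fas is known to be high. S1pr2, a receptor that holds cells in the germinal centre, had 30.3 CPM there and 1.48 to 6.07 CPM in the other 11 libraries, and Rgs13 had 17.3 CPM there and 0.512 to 5.61 CPM in the others. Of the 7 genes taken from this list, Gcsam, S1pr2, Rgs13 and Mybl1 were highest in that library, Bcl6 ranked 6, and Mki67 and Cd38, the last of which is low on mouse germinal centre B cells, ranked 9. None of the 7 was called by edgeR between resistant and sensitive cells. Of the age-associated list, some genes were high there as well and others were not. Tbx21 had 17.3 CPM in resistant replicate 3 and 0.986 to 7.64 CPM in the other 8 libraries that were not old, and 18.1 to 39.3 CPM in old libraries. Cxcr3 had 17.4 CPM in resistant replicate 3, 0 to 4.14 CPM in those 8 and 9.74 to 21.1 CPM in old libraries. The part of germinal centre or age-associated cells in the Fas level was not tested.

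Tnfrsf10b had 1.59, 1.39 and 3.06 CPM in resistant libraries, from 23, 23 and 64 reads, against 1.18, 1.0 and 2.48 CPM in sensitive libraries, from 21, 17 and 53 reads. It was higher in the resistant library of each date, by 1.34, 1.39 and 1.23 times, but the groups overlapped because both libraries of 7 May were high. The log2 difference was 0.37 ± 0.46 with an adjusted p of 1.0 by edgeR, and -0.061 without resistant replicate 3. Tnfrsf1a had 0.483, 0.848 and 0.478 CPM in resistant libraries, from 7, 14 and 10 reads, against 2.65, 0.647 and 0.374 CPM in sensitive libraries, from 47, 11 and 8 reads. The high sensitive library was the one with the high myeloid and granulocyte sums given above. The log2 difference was -1.01 ± 0.98 with an adjusted p of 1.0 by edgeR, and 0.26 without sensitive replicate 1.

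Fadd had 21.6, 19.8 and 20.4 CPM in resistant libraries, against 14.0, 16.2 and 21.4 CPM in sensitive libraries, and the groups overlapped through sensitive replicate 3. Tradd had 31.2, 34.4 and 41.5 CPM in resistant libraries, against 38.4, 39.7 and 50.03 CPM in sensitive libraries, and was lower in the resistant library on each of the 3 dates, at 0.812, 0.867 and 0.830 times. Casp8 had 114, 115 and 95.1 CPM in resistant libraries, against 110, 132 and 118 CPM in sensitive libraries, and the groups overlapped. Cflar had 170, 174 and 125 CPM in resistant libraries, against 133, 151 and 108 CPM in sensitive libraries, and was higher in the resistant library on each date, at 1.28, 1.15 and 1.16 times. Log2 differences were 0.26 ± 0.39 for Fadd, -0.26 ± 0.24 for Tradd, -0.15 ± 0.17 for Casp8 and 0.26 ± 0.20 for Cflar, each with an adjusted p of 1.0 by edgeR. With the date as a block the adjusted p by edgeR was 0.390 for Fadd, 0.237 for Tradd, 0.533 for Casp8 and 0.115 for Cflar.

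**Figure D3:**
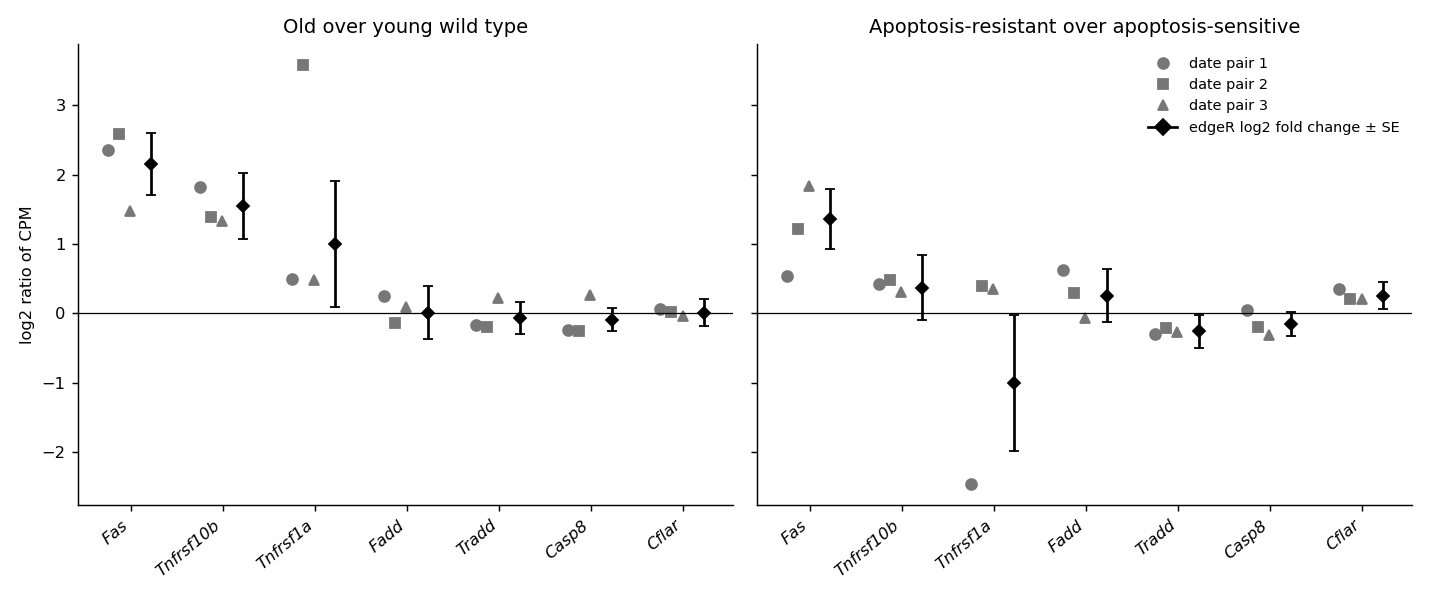
Log2 ratio of CPM (y axis) within each collection date (grey points, shapes for the 3 date pairs) and the edgeR log2 fold change with its SE (black diamonds) for each gene, old over young on the left and resistant over sensitive on the right. Fas and Tnfrsf10b lie above 0 on all 3 dates in both panels, Tradd lies below 0 on all 3 dates on the right, and Tnfrsf1a spreads most.

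Cflar and Casp8 act against each other in one complex, so their ratio was taken, after their values had been seen. There were 1.5, 1.51 and 1.31 Cflar reads per Casp8 read in resistant libraries, against 1.21, 1.15 and 0.909 in sensitive libraries. The groups did not overlap, and the resistant value was higher on each date, by 1.23, 1.32 and 1.44 times. The means were 1.44 ± 0.110 in resistant and 1.09 ± 0.160 in sensitive libraries (SD, n = 3 each). A two-sided exact permutation test gave p = 0.1, the smallest this test allows with 3 against 3 libraries. It took the libraries as unpaired and did not use the collection dates, here and with age. With age the ratio was 0.937, 1.33 and 1.19 in old libraries, against 0.761, 1.10 and 1.48 in young libraries, and the groups overlapped (exact permutation p = 0.9, two-sided). Read ratios of genes of unlike length show only whether the ratio differs between libraries, not which transcript is more abundant.

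**Figure D4:**
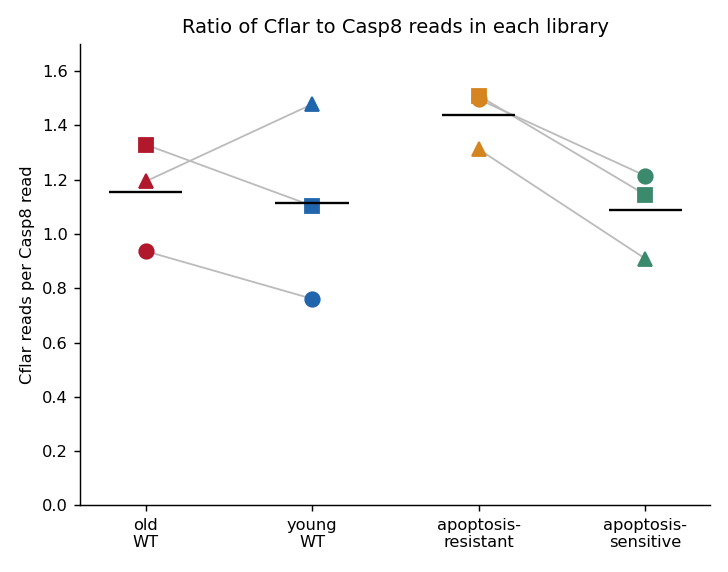
Cflar reads per Casp8 read (y axis, linear from 0) in each library by group; circles, squares and triangles are replicates 1, 2 and 3, grey lines join libraries of 1 collection date and bars are means of 3. The 3 resistant libraries lie between 1.31 and 1.51, above the sensitive libraries at 0.909 to 1.21, and the old and young libraries overlap.

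The age and genotype effects were then compared with each other. The age effect minus the genotype effect was 0.80 ± 0.60 for Fas, 1.18 ± 0.66 for Tnfrsf10b and 2.01 ± 1.33 for Tnfrsf1a on the log2 scale, with adjusted p values by edgeR of 0.997, 0.864 and 0.949. None of the 7 members passed by edgeR, with or without the date block, or by DESeq2, and none had an unadjusted p under 0.05, which 6.88% of all genes had. Among all genes tested 0.25% were called by edgeR, 7.03% with the block and 1.88% by DESeq2. Leaving out resistant replicate 3 gave 1.51 for Fas, and leaving out resistant replicate 1 gave 0.52. For Tnfrsf10b the range was 0.64 without sensitive replicate 3 to 1.60 without resistant replicate 3, and for Tnfrsf1a 0.74 without sensitive replicate 1 to 3.60 without young replicate 3. A difference between the age and genotype effects on Fas or Tnfrsf10b was thus not shown.

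Both Bak-deficient groups were also set against the young WT libraries, which the age comparison uses too and with which they share no date, so that genotype and collection date cannot be told apart. In sensitive against young cells no gene of the table was called by edgeR (0%), 2.73% had an unadjusted p under 0.05 and DESeq2 called 0.103%. None of the 7 members was called by either tool or had an unadjusted p under 0.05. Their log2 differences ran from -0.52 ± 0.93 for Tnfrsf1a to 0.74 ± 0.48 for Tnfrsf10b, and that of Fas was 0.29 ± 0.43. In resistant against young cells edgeR called 0.162% of all genes and 0 of the 7 members, while 2 members, Fas and Tnfrsf10b, had an unadjusted p under 0.05 (0.0027 and 0.0386), as 6.13% of all genes did. The difference was 1.65 ± 0.44 for Fas, with an adjusted p of 0.298 by edgeR and 0.0260 by DESeq2, and 1.11 ± 0.48 for Tnfrsf10b, with an adjusted p of 0.783 by edgeR. DESeq2 called 1.09% of all genes there. Without resistant replicate 3 the difference was 0.93 for Fas, with an adjusted p of 0.825 by edgeR, and 0.69 for Tnfrsf10b. For both genes every resistant library was above every young one, as for 6.64% of all genes.

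Over the 4 groups, mean Fas and mean Tnfrsf10b had the same order, highest in old, then resistant, then sensitive and lowest in young libraries. Neighbours in this order overlapped in both genes, except that resistant and sensitive libraries were apart for Fas. Mean Fas was 13.1 ± 9.01 CPM in resistant and 5.12 ± 1.54 CPM in sensitive libraries (SD, n = 3 each). Mean Tnfrsf10b was 2.74 ± 0.922 CPM in old and 0.934 ± 0.139 CPM in young libraries, and 2.01 ± 0.911 CPM in resistant and 1.55 ± 0.806 CPM in sensitive libraries. The other 5 members had no neighbouring groups apart. Their means spanned 15.8 to 20.6 CPM for Fadd, 35.7 to 42.7 CPM for Tradd, 108 to 124 CPM for Casp8, 131 to 156 CPM for Cflar and 0.603 to 3.52 CPM for Tnfrsf1a.

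The rest of the pathway was read through 5 lists of 52 genes, of which 47 were tested. With age none of the 47 was called by edgeR, 6 had an unadjusted p under 0.05 beside 11.6% of all genes, and the median log2 change of the 47 was -0.04 beside -0.03 over all genes tested. With the date block 6 were higher and 5 lower in old libraries, beside the 14.9% of all genes that the block called. Between resistant and sensitive cells none was called by edgeR with or without the block, 1 had an unadjusted p under 0.05 without it beside 4.9% of all genes, and the median was -0.06 beside -0.02 over all genes.

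Among 7 death ligand genes, 4 were tested and Tnfsf10, the gene of TRAIL, was higher with the block. It averaged 16.1 CPM in old and 8.30 CPM in young libraries, a log2 change of 0.95 ± 0.31 with an adjusted p of 0.184 by edgeR and 0.0028 with the block. Tnf averaged 14.9 CPM in old and 10.9 CPM in young libraries and did not pass (adjusted p = 0.770 by edgeR). Fasl, the ligand of Fas, known from T and NK cells, was too low to test. It had 12, 6 and 8 reads in old libraries, against 0, 1 and 0 reads in young libraries, and 0, 1 and 1 reads in resistant libraries, against 0, 1 and 3 reads in sensitive libraries.

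Among 10 other receptor genes, 8 were tested, and the block called 2 as higher in old libraries. Tnfrsf25, a death receptor of lymphocytes, averaged 1.39 CPM in old and 0.121 CPM in young libraries, and Tnfrsf1b, the second TNF receptor, averaged 48.9 CPM in old and 32.8 CPM in young libraries. Their adjusted p values by edgeR were 0.225 and 0.604 without the block and 0.0276 and 0.0093 with it. The old mean of Tnfrsf25 rested mostly on old replicate 1: the old libraries had 3.18, 0.563 and 0.430 CPM. Resistant replicate 1, at 0.828 CPM, was above old replicates 2 and 3, and the gene had 111 reads over all 12 libraries. Tnfrsf22, a decoy receptor for TRAIL in mouse, had a log2 change of 0.47 ± 0.27 and did not pass (adjusted p = 0.598 by edgeR).

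Among 16 genes of the receptor complexes, all tested, Traf1 averaged 105 CPM in old and 52.6 CPM in young libraries. Traf1 is an adaptor that NF-kB is known to induce. Its log2 change was 1.0 ± 0.30, with an adjusted p of 0.140 by edgeR, 0.0146 with the block and 0.0442 by DESeq2. Traf3, a brake on B cell survival signals, averaged 220 CPM in old and 266 CPM in young libraries and was called lower with the block (adjusted p = 0.0415 by edgeR). Traf2 averaged 82.8 CPM in old and 97.2 CPM in young libraries and was not called (adjusted p = 0.599 by edgeR).

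The 10 modulators of Fas and caspase-8 went both ways. Ptpn13, a phosphatase reported to bind Fas in human cells, averaged 3.99 CPM in old and 0.452 CPM in young libraries, and Tnfaip8 averaged 143 CPM in old and 89.1 CPM in young libraries. Both were called higher with the block, with adjusted p values of 0.0392 and 0.0101 by edgeR, but not without it, at 0.187 and 0.337. Arap1 averaged 405 CPM in old and 526 CPM in young libraries, and Fcmr, the Fc receptor for IgM, averaged 622 CPM in old and 818 CPM in young libraries. Both were called lower with the block, with adjusted p values of 0.0270 and 0.0162 by edgeR.

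Of the 9 genes that act after caspase-8, all tested, 2 were called lower with the block and none higher. Xiap, an inhibitor of caspases, averaged 143 CPM in old and 195 CPM in young libraries, and Parp1, a substrate of the executioner caspases, averaged 435 CPM in old and 594 CPM in young libraries. Their adjusted p values by edgeR were 0.0132 and 0.0087 with the block and 0.560 and 0.555 without it.

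The genes most like each member across libraries were found by Pearson's r of log2 CPM over the 12 libraries among 11218 genes, as a description of libraries that share groups, dates and depth. For Fas they were Nt5e (r = 0.958), which encodes the surface enzyme CD73, Sowahc (r = 0.957) and Hpgds (r = 0.955). Nt5e averaged 54.2 CPM in old and 2.69 CPM in young libraries, and 24.5 CPM in resistant and 4.06 CPM in sensitive libraries. For Tnfrsf10b, Pvt1 (r = 0.935) and Slc4a3 (r = 0.934) are named. Tnfrsf1a was nearest to Atp8b4 (r = 0.975), the complement gene C3 (r = 0.960) and Gda (r = 0.936). The nearest genes to Tradd were Cox7c (r = 0.986), Slc25a3 (r = 0.976) and Cox11 (r = 0.972), which encode mitochondrial proteins. Fadd was nearest to Spata5, Rit1 and Ptp4a2, with r from 0.966 to 0.970, and Cflar to Il6ra, Tbl1xr1 and Evi5, with r from 0.951 to 0.952. Casp8 had the lowest likeness, to Zfp1, Cyb561a3 and Mmab, with r from 0.866 to 0.896.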

How the data were processed

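Whole-number read counts per gene were used as the authors deposited them, in 1 table for all 12 libraries, with genes named by Entrez gene number. The submitters' processing notes name mm10, Subread and featureCounts, but no version, annotation or strand setting. Per the labels, the libraries were TruSeq v2 libraries of polyA RNA. The age labels gave the old and young WT groups, which the labels call GroupA and GroupB, and the group labels gave the others. The table had 0 unused columns. Symbols and coordinates came from RefSeq on GRCm38.p6, which named 25275 of 27179 genes, and merged exon lengths from GENCODE M21.

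Counts were scaled by TMM, filtered with filterByExpr (minimum 10) and fitted by group over all 12 libraries with edgeR 4.0.16 (robust quasi-likelihood, 8 residual degrees of freedom) under R 4.3.3, with Benjamini-Hochberg adjustment over 13592 genes and a threshold of 0.05. An adjusted p with no other tool named is from this fit. The procedure was tested on simulated counts. The series states that the 3 libraries of a group are biological replicates. Collection dates in the labels pair old with young and resistant with sensitive libraries (the labels of 24 March give 2006 as the year, the others 2016). Deviations from the group means correlated across genes in all 6 pairs (r from 0.256 to 0.717), so a fit with the date as a block (4 residual degrees of freedom) is given where it changes a call. It cannot be made against young cells from other dates. Alternatives were DESeq2 1.42.0, limma-voom 3.58.1, other scalings and filters, the compared groups alone, and each library left out.

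The 7 members and all lists were chosen with earlier results of these data known. Named genes were all members, the genes of each pathway list called in a comparison and its 2 lowest p values with age, Bax, Bak1, and the 3 genes most like each member among genes with a mean of at least 1 CPM. No p-value was adjusted over a list alone. Some genes of the marker lists and of the like genes are not reported here, and the summed levels of the B cell and germinal centre lists leave them out.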

Additional observations from a re-analysis of the deposited data

How the results depend on the processing

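The number of members called with age was 1, and became 2 with the date block, 2 with DESeq2, 0 with only the compared groups fitted, 0 without both libraries of 24 March (an alternative chosen after seeing the data) and 0 to 1 with a library left out. With the block and without the 24 March libraries, Fas was called with age (adjusted p = 0.0151 by edgeR). Between resistant and sensitive cells the number was 0, and 1 with the block. Between resistant and young cells it was 0, and 1 with DESeq2. The block changed no other call of a member. Over all genes, edgeR called 273 with age, 2028 with the block and DESeq2 700, and between resistant and sensitive cells 6, 463 and 128 in the same order. Of the changes near 0 with age, Tradd turned to 0.029 with upper quartile scaling and Fadd to -0.021 with limma-voom. Without both 24 March libraries Fadd was -0.026, Cflar -0.0069 and Tradd 0.015, and with the block as well Fadd was -0.020, Casp8 0.011, Cflar -0.0070 and Tradd 0.010. Also without them, Fadd was -0.20 and Casp8 0.10 in sensitive against young cells, and Tradd 0.048 in resistant against young cells.

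Leaving out 1 library at a time turned the sign of other small values. With age the range was -0.31 to 0.33 for Fadd, -0.24 to 0.058 for Casp8, -0.088 to 0.11 for Cflar, -0.25 to 0.22 for Tradd and -0.16 to 0.32 for the log2 ratio of Cflar to Casp8. Between resistant and sensitive cells it was -0.061 to 0.90 for Tnfrsf10b and -1.43 to 0.26 for Tnfrsf1a. For the difference of effects it was -0.56 to 0.063 for Fadd, -0.10 to 0.22 for Casp8 and -0.0048 to 0.49 for Tradd. Sensitive against young gave -0.19 to 0.42 for Fadd, -0.17 to 0.11 for Casp8, -0.14 to 0.11 for Cflar, -1.77 to 1.10 for Tnfrsf1a and -0.11 to 0.31 for Tradd, and resistant against young -2.05 to 0.10 for Tnfrsf1a and -0.36 to 0.048 for Tradd. The cause of these changes was not tested. Fas kept its sign under every alternative, between 2.0 and 2.33 with age and between 0.63 and 1.64 between resistant and sensitive cells with a library left out.

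Depth limits Tnfrsf1a and Tnfrsf10b most, with as few as 7 and 12 reads in a library. The filter of 1 CPM in 6 libraries gave no value for Tnfrsf1a.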
